A study of Homo sapiens with 22 samples.

Results

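Neurotrophins and the ligands of the glial cell line-derived neurotrophic factor (GDNF) family are secreted survival factors of neurons and of the neural crest. The 8 genes described here encode 7 of their receptors and 1 ligand, and were taken from the table by symbol. They were RET, GFRA1, GFRA2 and GFRA3 of the GDNF family, and NGFR, NTRK2, NTRK3 and BDNF of the neurotrophin family, among 35237 genes in all. The RNA came from 2 established neuroblastoma lines of human origin, SK-N-AS and GIMEN, which the labels call mesenchymal. The study compared untreated cells with cells given PP121, an inhibitor of tyrosine kinases and of phosphoinositide kinases, and bufalin, a cardiac glycoside that blocks the sodium pump. Untreated SK-N-AS cells were kept in DMEM with 10% fetal bovine serum (n = 4). The S1D4 group had received 5 µM PP121 for 4 days in DMEM with 1% serum (n = 4). The S2D4 and S2D30 groups went from there into Neurobasal medium with B27 supplement, with 5 µM PP121 and 100 nM bufalin, for 4 or 30 days (n = 4 each). Untreated GIMEN cells were in RPMI with 10% serum (n = 3), and the GIMEN D30 group had 2.5 µM PP121 and 10 nM bufalin in RPMI with 1% serum for 30 days (n = 3). Compounds, serum and, in stage 2 of SK-N-AS, the medium changed together, so their effects cannot be told apart, and doses and media differed between the lines. Each line is 1 source of cells, and the labels do not say whether replicates were separate cultures, so p-values measure the spread between these libraries.

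RET is a receptor tyrosine kinase that does not bind the GDNF-family ligands by itself. Each ligand binds a GFR-alpha co-receptor held in the membrane by a lipid anchor (GDNF prefers GFRA1, neurturin GFRA2 and artemin GFRA3), and the pair then engages RET. Neurotrophins bind the TRK kinases, of which NTRK2 is the receptor of BDNF and NTRK3 that of neurotrophin-3, and all of them bind p75NTR, the product of NGFR, which has no kinase. RET and p75NTR are made by cells of the sympathetic lineage, from which neuroblastoma arises.

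The libraries held 16456484 to 37506800 counts. Levels are given as CPM, counts divided by the scaled total of their library, under 1 scaling of all 22 libraries, and a gene with at most 3 counts in every library of a group was taken to be at the floor of detection there. Replicate 4 of S2D4 stood apart. Across genes it correlated with the other S2D4 libraries at 0.967 to 0.969, and its mean correlation with S1D4 was 0.944, against 0.932 to 0.934 for replicates 1 to 3. Its values are given separately for RET, NGFR, GFRA2 and BDNF, and other S2D4 means and counts include it unless stated. The label "mesenchymal" did not separate the lines from the adrenergic state equally. In untreated SK-N-AS, 10 adrenergic markers summed to 1662 to 1883 CPM and 10 mesenchymal markers to 1465 to 2001 CPM. In untreated GIMEN the sums were 452 to 475 and 47741 to 49515 CPM, and PHOX2A, TH and DDC were at 0.

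In SK-N-AS, RET, NGFR and GFRA2 fell over the treatment, GFRA2 from S1D4 on and RET and NGFR from S2D4 on, NGFR after a rise in S1D4. BDNF, between 2.04 and 10.4 CPM, was lower in S1D4, rose from there to S2D4 and was near its untreated level in S2D30. GIMEN lacked most of the receptors from the start, and there BDNF rose and NTRK3 fell over 30 days. Of the 8 genes, 7 passed the filter on low counts in SK-N-AS and GFRA3 did not. GFRA1 passed through the S2D30 group alone, where it was highest, so its calls, lower in S2D4 and higher in S2D30, are part of the counts below but no support for them. The same holds for NTRK2, called lower in S1D4 and S2D30, since it passed through untreated and S2D4 libraries alone, where it was highest. In S1D4, edgeR called 1 of the 7 higher and 3 lower than in untreated cells at an adjusted p under 0.05, where 40.1% of all 15810 genes were called, 17.6% higher and 22.4% lower. In S2D4, 0 were called higher and 4 lower, where 63.1% of all genes were called, 30.9% higher and 32.2% lower. In S2D30, 1 was higher and 4 lower, where 70.3% of all genes were called, 33.8% higher and 36.5% lower. The median log2 fold changes of the 7 genes were -0.82, -1.06 and -1.31, against -0.01, -0.02 and -0.03 over all genes. The 3 comparisons share their untreated libraries. Since most genes were called at S2D4 and S2D30, the counts do not set these 7 genes apart, and the results are the values of each gene.

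**Figure D1:**
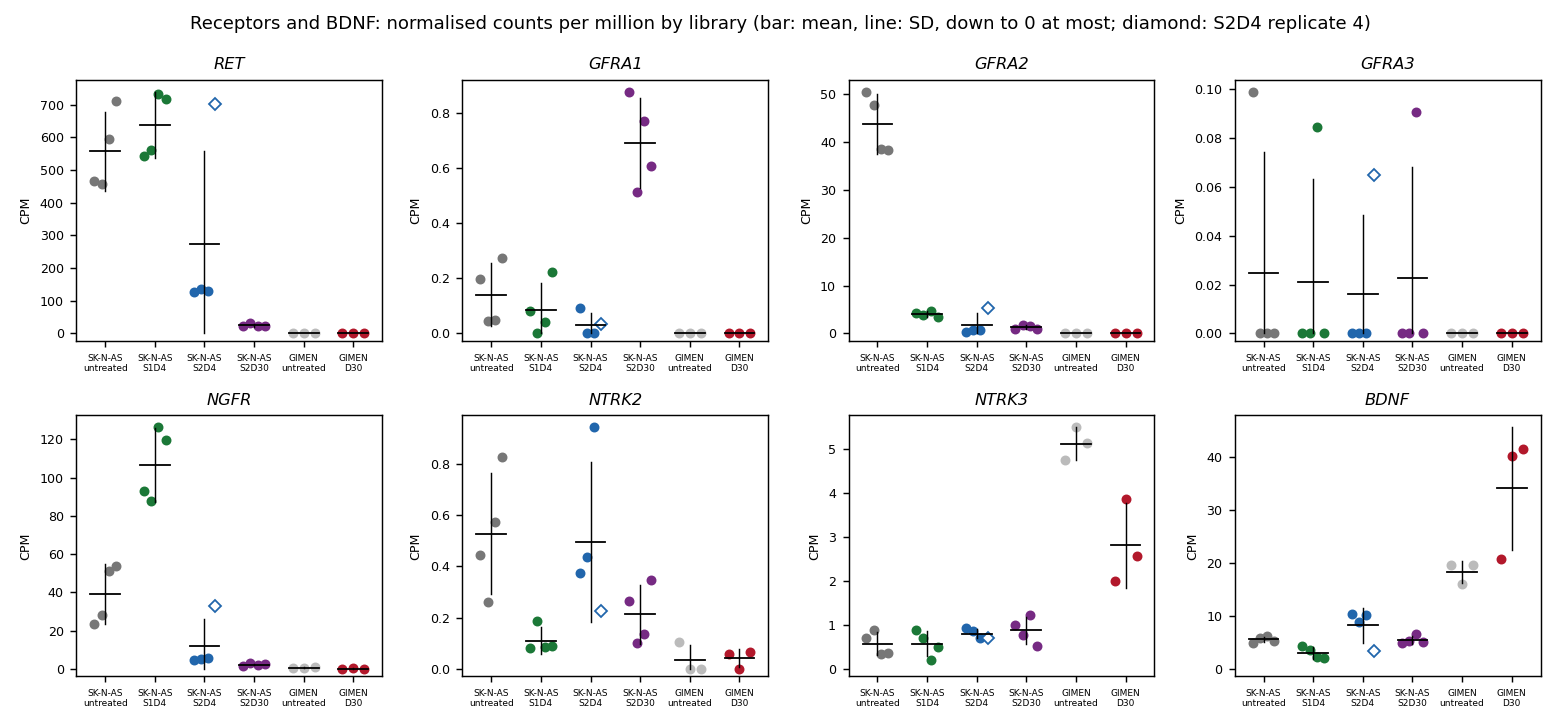
Normalised counts (CPM) of the 8 genes in each library (y axis, linear, a separate scale for each gene) by group (x axis), with the mean as a bar and the SD as a line that stops at 0. The open diamond is S2D4 replicate 4, which for RET, NGFR and GFRA2 lies above the other 3 S2D4 libraries (703 against 126 to 137 CPM for RET), and RET and GFRA2 lie at or near 0 in all GIMEN libraries.

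RET, the signalling kinase of the GDNF family, was the most abundant of the 8 genes per length in SK-N-AS and fell late. Untreated cells had 465, 458, 594 and 710 CPM, and S1D4 had 543, 561, 732 and 719 CPM. The ranges overlapped, and RET was not called in S1D4 (edgeR log2 fold change of 0.18 with an SE of 0.42, adjusted p 0.780). S2D4 replicates 1 to 3 held 126, 137 and 130 CPM and replicate 4 held 703 CPM. So 3 S2D4 libraries lay below every untreated library, and the fourth lay within the range of the earlier groups. With all 4, the change from untreated was -1.06 (SE 0.43, edgeR adjusted p 0.0407). Without replicate 4 it was -2.12 (SE 0.16, adjusted p 7.14e-09), and with any of replicates 1 to 3 left out instead the adjusted p was 0.115 to 0.117. It was 0.0514, 0.0750 and 0.0937 without untreated replicates 1, 3 and 4, and 0.0552 with DESeq2. With a term for replicates 3 and 4 of untreated and S1D4 it was 0.141, and in a model of these groups alone 0.118.

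By S2D30, RET was at 23.3, 30.4, 23.4 and 21.1 CPM, below all other SK-N-AS libraries. The change from untreated was -4.54 (SE 0.50, edgeR adjusted p 4.00e-07), and that from S2D4 was -3.48 (SE 0.47, adjusted p 1.34e-05). The latter was -2.42 (adjusted p 2.59e-09) without S2D4 replicate 4. Since all 16 libraries share 1 estimate of the spread of a gene, that library also set the error of the other comparisons: without it the SE of the S2D30 change of RET was 0.16. From S1D4 to S2D4, RET changed by -1.23 (SE 0.43, adjusted p 0.0229), or by -2.29 (adjusted p 5.42e-09) without replicate 4. That call was lost without S2D4 replicates 1, 2 or 3 (adjusted p of 0.0684 to 0.0701) or S1D4 replicate 3 (0.05), with a term for replicates 3 and 4 (0.0833) and in a model of these groups alone (0.0827). The adrenergic markers fell alongside, from 1384 to 1648 CPM summed in S1D4 to 213 to 262 CPM in S2D30, with 9 of 10 lower than in untreated cells. In S2D4 they summed to 594 to 640 CPM in replicates 1 to 3 and to 912 CPM in replicate 4. Their part in the fall of RET was not tested, and in bulk RNA fewer cells with RET and less RET per cell cannot be told apart.

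Stretches upstream of RET, the receptor with the highest level per length in SK-N-AS, and of BDNF, the ligand, are shown for comparison of their base composition. They come from the RefSeq promoter table (GRCh38.p14), in which 6 of the 8 genes had a start. Each is read 5′ to 3′ on the gene's strand, upstream of the first of the listed starts (2 for RET and 5 for BDNF) and without any annotated exon, with GC boxes (GGGCGG on either strand) in capitals.
RET, chr10:43076819-43077026, plus strand: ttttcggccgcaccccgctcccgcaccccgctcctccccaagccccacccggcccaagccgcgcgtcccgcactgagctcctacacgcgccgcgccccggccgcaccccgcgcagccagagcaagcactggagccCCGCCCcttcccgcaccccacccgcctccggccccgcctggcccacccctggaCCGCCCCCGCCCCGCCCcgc
BDNF, chr11:27722059-27722280, minus strand: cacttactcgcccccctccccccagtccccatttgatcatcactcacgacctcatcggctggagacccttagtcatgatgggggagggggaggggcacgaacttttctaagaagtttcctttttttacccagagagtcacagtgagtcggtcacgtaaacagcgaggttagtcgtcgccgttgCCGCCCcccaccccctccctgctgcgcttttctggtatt

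The RET stretch of 208 bases was 80.8% G and C, against a median of 57.7% over all 35116 listed starts, and held 4 GC boxes. Windows of that length held at least 1 in 36.7% of starts. The BDNF stretch of 222 bases was 56.8% G and C and held 1 GC box (39.2% of windows of that length). An E box (CANNTG, either strand) was absent from the RET stretch and occurred once in that of BDNF, against 56.0% and 58.1% of windows with 1 or more. The letters TGACG, the core of the cAMP response element, and TATAAA were in neither (17.1% and 7.82% of windows as long as that of RET). The bases nearest the start, from the first annotated exon on, were left out, 42 for RET and 28 for BDNF. Matches there were not searched, so the stretches cannot show whether a TATA box lies close to the start. These are matches of letters only, and which start these cells used is not known from the counts.

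Of the co-receptors, GFRA2 was the one present, and it fell at the first step, before RET. It had 50.5, 47.6, 38.5 and 38.4 CPM in untreated SK-N-AS and 4.34, 3.86, 4.68 and 3.32 CPM in S1D4. The groups did not overlap, and the change was -3.46 (SE 0.53, edgeR adjusted p 7.74e-05). S2D4 replicates 1 to 3 were lower again, at 0.279, 0.597 and 0.659 CPM, while replicate 4, at 5.38 CPM, was above every S1D4 library. The change from untreated in S2D4 was -4.58 (SE 0.56, adjusted p 2.51e-06), and -6.45 without replicate 4. From S1D4 to S2D4 it was -1.12 (SE 0.55, adjusted p 0.0920), or -2.99 (SE 0.29, adjusted p 1.97e-07) without replicate 4. S2D30 held 1.01, 1.84, 1.49 and 0.868 CPM, a change from untreated of -5.11 (SE 0.59, adjusted p 7.88e-07). All S2D30 libraries thus lay above S2D4 replicates 1 to 3 and below replicate 4. The direction of the last step turned on that library: -0.53 (SE 0.61, adjusted p 0.487) with it and 1.33 (SE 0.33, adjusted p 0.00284) without it.

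GFRA1, the preferred co-receptor of GDNF, was near the floor until S2D30. Untreated libraries held 8, 1, 1 and 9 counts, S1D4 held 2, 0, 1 and 5, and S2D4 held 2, 0, 0 and 1. In S2D30 there were 20, 10, 17 and 14 counts, or 0.512 to 0.877 CPM, above every other library. The group rests on 61 counts in all. Since the filter kept GFRA1 through this group, the test is given from the model with no filter, where the change from untreated was 2.14 (edgeR adjusted p 0.00884). GFRA1 was also called lower in S2D4 than in untreated cells (adjusted p 0.0487), on 3 counts against 19, a ratio of 4.98 with a 95% counting interval of 1.47 to 26.3 for untreated over S2D4. That call was lost without S2D4 replicates 2, 3 or 4 or untreated replicates 1 or 4, with DESeq2, with no filter and with a term for replicates 3 and 4 (adjusted p of 0.0775 to 0.149). GFRA3, the co-receptor of artemin, had at most 4 counts in any library, with 0 in 12 of the 16 SK-N-AS libraries and in all 6 of GIMEN, and could not be compared.

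NGFR, encoding p75NTR, rose before it fell. Untreated cells had 23.4, 28.0, 51.1 and 53.9 CPM, and S1D4 had 93.2, 87.5, 126 and 120 CPM, without overlap. The rise was 1.43 (SE 0.48, edgeR adjusted p 0.0250). Replicates 1 and 2 lay below replicates 3 and 4 in both groups. Within replicates 1 and 2 the mean went from 25.7 to 90.3 CPM, and within replicates 3 and 4 from 52.5 to 123 CPM, ratios of 3.52 and 2.34. The call did not hold without untreated replicates 1 or 2 or S1D4 replicates 3 or 4 (adjusted p of 0.0544 to 0.0714), and it was firmer without S2D4 replicate 4 (SE 0.22, adjusted p 4.75e-05).

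NGFR then dropped to 4.66, 5.21 and 5.65 CPM in S2D4 replicates 1 to 3, with 33.0 CPM in replicate 4, which lay within the untreated range. The change from untreated in S2D4 was -1.69 (SE 0.49, edgeR adjusted p 0.00681), and -2.94 without replicate 4. In S2D30 it was at 1.67, 2.87, 2.17 and 2.39 CPM, a change of -4.14 (SE 0.58, adjusted p 7.17e-06). From S2D4 to S2D30 it fell by 2.45 on the log2 scale (SE 0.57, adjusted p 0.00182), or by 1.20 (adjusted p 0.00456) without replicate 4. The NGFR values have a limit of annotation, since 27.1% of its exon bases in GENCODE release 29 lie opposite other genes and 20.7% of its 75-base words also occur in another gene. Whether the counting used the strand is not given in the sources used here. A split of replicates 1 and 2 from 3 and 4 was also seen in several marker sums, among them the sum of 10 sensory neuron markers. That sum rests on few of them, since 4 had a mean over 1 CPM in untreated cells and 3 in S1D4, and NEUROG1 and SCN10A were at 0 in untreated cells. The 10 markers summed to 237.5 and 236.8 CPM in untreated replicates 1 and 2 against 611.5 and 623.5 CPM in replicates 3 and 4, and to 197.5 and 185.4 against 310.8 and 288.7 CPM in S1D4. Each sum was thus lower in S1D4, where NGFR was higher. The split was not particular to them. In the same untreated libraries adrenergic markers summed to 1713 and 1662 against 1883 and 1793 CPM. Mesenchymal markers went the other way, at 2001 and 1895 against 1617 and 1465 CPM. Schwann and glial cells also carry p75NTR, and their 10 markers summed to 3.05 to 4.5 CPM in untreated SK-N-AS, 7.36 to 10.2 CPM in S1D4 and 4.35 to 5.27 CPM in S2D30. In these groups 1, 2 and 2 of the 10 had a mean over 1 CPM. The part of these markers in the NGFR values was not tested.

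The TRK receptors of BDNF and neurotrophin-3 were scarce in SK-N-AS. NTRK2 never reached 1 CPM, and it passed the filter through untreated and S2D4 libraries alone, where it was highest. Its calls, lower in S1D4 and S2D30 and higher from S1D4 to S2D4, are therefore no support for these changes. Its libraries held 18, 6, 12 and 27 counts untreated, 2, 4, 2 and 2 in S1D4, 8, 8, 20 and 7 in S2D4, and 6, 2, 3 and 8 in S2D30. The S1D4 libraries were thus all below the untreated ones (edgeR log2 fold change of -2.25 with an SE of 0.55, adjusted p 0.00397) and all below those of S2D4 (2.10 from S1D4 to S2D4, SE 0.57, adjusted p 0.00516). In S2D30 the change from untreated was -1.31 (SE 0.50, adjusted p 0.0282), with overlapping groups. It was lost without untreated replicates 3 or 4 or S2D30 replicates 2 or 3, with DESeq2, with no filter and with a term for replicates 3 and 4 (adjusted p of 0.0502 to 0.132). NTRK3 stayed between 0.211 and 1.22 CPM in all 16 libraries, with 5 to 28 counts. It was called in none of the 3 comparisons with untreated cells, with changes of -0.02, 0.46 and 0.59 (SE 0.42, 0.41 and 0.41, adjusted p 0.981, 0.343 and 0.206).

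BDNF, the ligand of NTRK2, was lower in S1D4, where NGFR was higher, and was back near its untreated level in S2D30. It was at 4.92, 5.72, 6.20 and 5.31 CPM untreated, and at 4.22, 3.58, 2.19 and 2.04 CPM in S1D4. Each S1D4 library lay below each untreated one, a change of -0.90 (SE 0.30, edgeR adjusted p 0.0238). The fall was larger in replicates 3 and 4 (ratio of 0.368) than in replicates 1 and 2 (0.732), and its adjusted p was 0.0571, 0.0746 and 0.0771 without untreated replicate 3 and S1D4 replicates 3 and 4. In S2D4 it was at 10.4, 8.84 and 10.1 CPM in replicates 1 to 3 and at 3.43 CPM in replicate 4. Replicates 1 to 3 lay above every untreated library and replicate 4 below. BDNF therefore was not called against untreated cells with all libraries (0.53, SE 0.29, adjusted p 0.122) and was higher without replicate 4 (0.79, SE 0.20, adjusted p 0.00277). From S1D4 to S2D4 it rose by 1.43 (SE 0.30, adjusted p 0.000731), and by 1.69 without replicate 4. S2D30, at 4.91, 5.32, 6.61 and 5.12 CPM, overlapped the untreated libraries but reached above them (-0.05, SE 0.29, adjusted p 0.897). The means were 5.54 CPM untreated and 5.49 CPM in S2D30. Of BDNF's exon bases 9.06% lie opposite another gene, BDNF-AS.

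**Figure D2:**
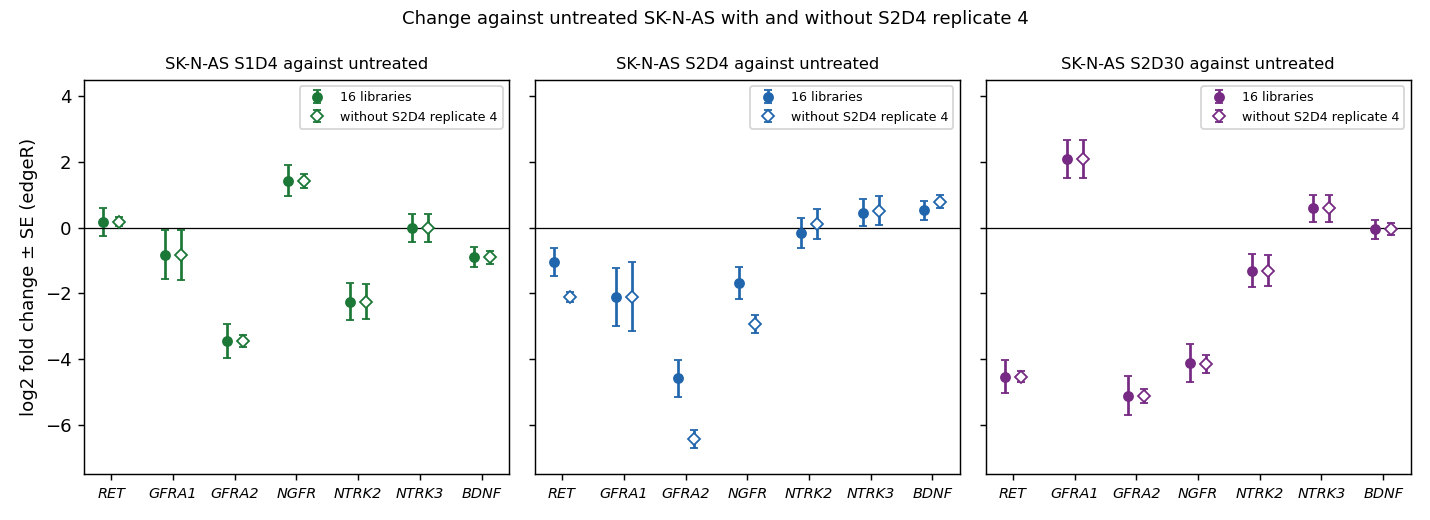
Log2 fold change against untreated SK-N-AS with its SE (y axis) of the 7 tested genes (x axis) in S1D4, S2D4 and S2D30. Filled circles use all 16 libraries and open diamonds leave out S2D4 replicate 4, which moves RET from -1.06 to -2.12 and GFRA2 from -4.58 to -6.45 in S2D4 and shortens the error bars of RET, NGFR and GFRA2 in all 3 panels.

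Between consecutive steps, 2 of the 7 genes were called higher and 2 lower from S1D4 to S2D4, where 55.1% of all genes were called. These were BDNF and NTRK2, and RET and NGFR. The filter kept NTRK2 through untreated and S2D4 libraries alone, so its calls in the steps to and from S2D4 are no support. From S2D4 to S2D30, RET and NGFR were called lower, where 51.3% of all genes were called, and GFRA1, which the filter kept through S2D30 alone, was called higher. Without S2D4 replicate 4, 6 genes were called in the last step, with GFRA2 higher and BDNF and NTRK2 lower in addition. The edgeR adjusted p of GFRA2, BDNF and NTRK2 was 0.00284, 0.00253 and 0.0272. GFRA1 is also among the 6. Over the fits that each left out a single library, 7311 to 8644 of all genes were called in this step, against 8111 with every library kept. The share of all genes without S2D4 replicate 4 is not given here, so the count of 6 does not set these genes apart.

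GIMEN had the opposite makeup. RET had 0, 0 and 1 counts in the untreated libraries and 0, 1 and 0 at D30, and GFRA2 had 0, 0 and 1 and then none. NGFR had 5, 10 and 14 counts and then 1, 5 and 1. NTRK2 had at most 2 counts in any GIMEN library, and GFRA1 and GFRA3 had none. So NTRK3 and BDNF alone passed the filter, and both were called over 30 days, 1 higher and 1 lower, where 71.4% of all 13517 genes were (35.5% higher and 36% lower). With no filter, the fall of NGFR had an edgeR adjusted p of 0.0540 (log2 fold change of -1.82, SE 0.80).

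BDNF rose in GIMEN. It was at 19.5, 15.9 and 19.5 CPM untreated and at 20.7, 40.03 and 41.4 CPM at D30, so the groups did not overlap, but D30 replicate 1 was close to the untreated libraries. The change was 0.87 (SE 0.22, edgeR adjusted p 0.00375). NTRK3 fell from 4.74, 5.50 and 5.14 CPM to 1.996, 3.87 and 2.57 CPM, again without overlap (-0.90, SE 0.24, adjusted p 0.00562). Neither change reached a factor of 2 in the fit, that is, 1 on the log2 scale, and both were called with each library left out in turn. GIMEN's 10 mesenchymal markers summed to 47741 to 49515 CPM untreated and to 22173 to 24672 CPM at D30, and their part in these changes was not tested.

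Compared directly, untreated GIMEN had 2 of the 7 tested genes higher and 5 lower than untreated SK-N-AS, where 73.9% of all 16246 genes were called (35.3% higher and 38.6% lower). The 5 lower genes, RET, GFRA2, NGFR, NTRK2 and GFRA1, passed the filter through SK-N-AS libraries alone. Their direction was thus set by the filter, and the count of 5 is no support for a difference. BDNF was higher by 1.75 (SE 0.20, edgeR adjusted p 4.41e-07) and NTRK3 by 3.17 (SE 0.34, adjusted p 2.59e-07). NGFR stood at 4422 counts over the 4 SK-N-AS libraries against 29 over the 3 of GIMEN, a ratio of 74.8 (95% counting interval 52.0 to 112). RET stood at 65009 counts over the 4 SK-N-AS libraries against 1 count over the 3 of GIMEN, a ratio of 31907 with a 95% counting interval of 5726 to 1260270. GFRA2 stood at 5196 counts against 1, a ratio of 2550 (interval 458 to 100747). NTRK2 had 63 counts against 2, a ratio of 15.5 (interval 4.11 to 130). GFRA1, with 19 counts against 0, was too low for a fold, and its call was lost with a replicate block (adjusted p 0.0872). Such intervals cover counting error only. After 30 days RET was still at 2129 counts in S2D30 against 1 in GIMEN D30.

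The 30-day change itself was compared between the lines, where 49.7% of all genes differed and 2 of the 7 were called. BDNF changed by 0.92 more in GIMEN than in SK-N-AS (SE 0.28, edgeR adjusted p 0.0115). In a model of all 22 libraries this was 0.90 with an adjusted p of 0.0866. NTRK3 changed by 1.46 less (log2 difference of -1.46, SE 0.49, adjusted p 0.0205), and the call was just lost without S2D30 replicate 3 or GIMEN D30 replicate 1 (adjusted p 0.0524 and 0.0505). For NGFR the difference of 2.36 had an SE of 1.19 (adjusted p 0.113), and DESeq2 gave 2.30 with 0.00567. RET, GFRA1, GFRA2 and NTRK2 were at the floor in GIMEN and allow no such difference.

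**Figure D3:**
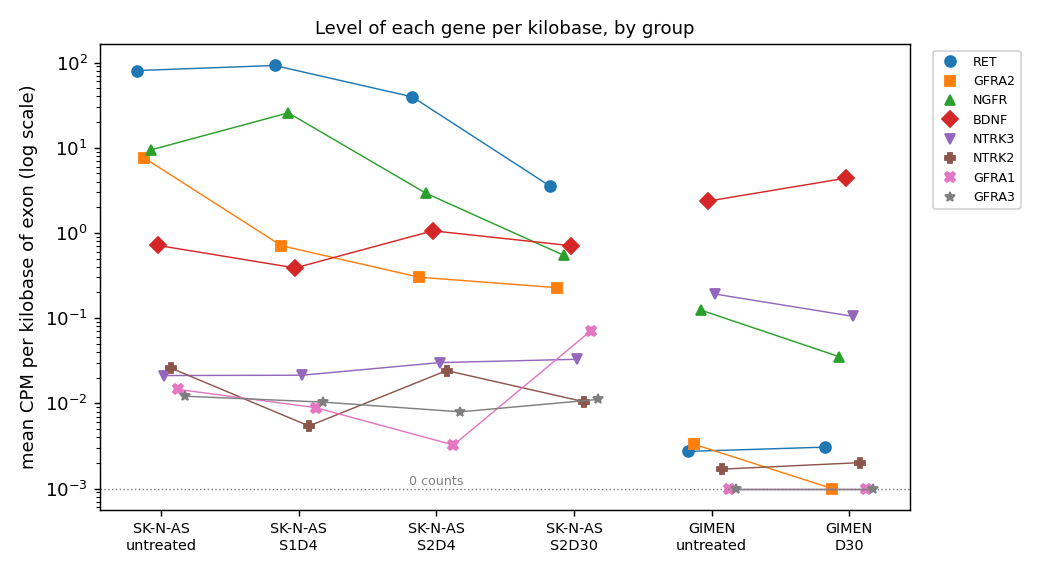
Mean CPM per kilobase of exon (y axis, log scale) of the 8 genes in each group (x axis), with lines joining the groups of a line and values of 0 drawn on the dotted line. RET leads in all SK-N-AS groups, from 80.6 untreated to 3.55 in S2D30, and BDNF leads in GIMEN, at 2.37 and 4.395; the S2D4 means include replicate 4.

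Per length, the order of the genes also changed. Divided by the summed exon length in GENCODE release 29, untreated SK-N-AS had 80.6 ± 17.3 CPM per kilobase of RET (SD, n = 4). NGFR followed at 9.42 ± 3.77 and GFRA2 at 7.65 ± 1.09, and these neighbours overlapped. BDNF was at 0.716 ± 0.0711, and NTRK2, NTRK3, GFRA1 and GFRA3 were at or below 0.0258. In S2D30 RET still led at 3.55 ± 0.584, but BDNF, at 0.710 ± 0.0989, now stood beside NGFR, at 0.548 ± 0.120, with overlapping libraries, ahead of GFRA2 at 0.228 ± 0.0784. In untreated GIMEN the order was BDNF at 2.37 ± 0.270 (SD, n = 3), NTRK3 at 0.192 ± 0.0141 and NGFR at 0.124 ± 0.0644, the last 2 overlapping. At D30 BDNF was at 4.395 ± 1.496 and NTRK3 at 0.105 ± 0.0359. With the longest transcript as the length, the ranks of RET, NGFR, GFRA2 and BDNF in SK-N-AS and of BDNF, NTRK3 and NGFR in GIMEN were the same.

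Other genes of both families showed which partners were transcribed in the same cells. Of the 10 other GDNF-family ligands and receptors 8 were tested in SK-N-AS. In S2D30, 2 were higher, 5 lower and 1 was not called (33.8% and 36.5% of all genes were higher and lower). In S1D4, 3 were higher and 1 lower (17.6% and 22.4% of all genes). GDNF, the ligand that uses GFRA1, rose from 5.38 ± 1.06 CPM untreated to 19.9 ± 2.52 in S1D4 (SD, n = 4, log2 fold change of 1.86, edgeR adjusted p 0.000289). It was at 9.22 to 10.6 CPM in S2D4 replicates 1 to 3 and at 31.2 CPM in replicate 4. In S2D30 it fell to 0.953 ± 0.255 CPM (-2.54, adjusted p 1.82e-05), the group in which GFRA1 was highest. In GIMEN, where no GFR-alpha gene was above the floor, GDNF went from 12.1 ± 0.824 to 18.3 ± 2.05 CPM (SD, n = 3, 0.57, adjusted p 0.000667). Exons of another gene lie opposite 12.3% of those of GDNF.

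Neurturin (NRTN), the preferred ligand of GFRA2, was at 5.07 ± 1.54 CPM in untreated SK-N-AS (SD, n = 4) and 2.87 ± 1.63 CPM in S1D4 (edgeR adjusted p 0.137). It was at 0.284 ± 0.246 CPM in S2D4 replicates 1 to 3 (SD, n = 3), 0.13 CPM in replicate 4 and 1.12 ± 0.116 CPM in S2D30, where its change from untreated was -2.21 (adjusted p 0.000481). All 4 S2D4 libraries were below those of S2D30, and NRTN was at the floor in GIMEN. Artemin (ARTN), the ligand of GFRA3, was at 1.97 ± 0.640 CPM untreated and 0.549 ± 0.222 CPM in S2D30 (-1.86, adjusted p 0.000123), and persephin (PSPN) was at 11.6 ± 1.69 and 9.40 ± 0.951 CPM (-0.34, adjusted p 0.0680). PSPN rose in GIMEN from 5.12 ± 1.09 to 7.88 ± 1.12 CPM (SD, n = 3, 0.59, adjusted p 0.0153), and the call was lost without untreated replicate 1 or D30 replicate 2.

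GDF15, a distant relative of the ligands that signals through GFRAL and RET, had the largest log2 changes of the tested genes of this list in S1D4 and S2D30. It went from 5.82 ± 1.33 CPM untreated to 46.4 ± 14.4 CPM in S1D4 and 811 ± 208 CPM in S2D30 (SD, n = 4, log2 fold changes of 2.97 and 7.08, edgeR adjusted p 0.00206 and 4.36e-07). In S2D4 it was at 205 to 220 CPM in replicates 1 to 3 and at 2054 CPM in replicate 4. In GIMEN it rose from 68.1 ± 3.90 to 1795 ± 392 CPM (SD, n = 3, 4.69, adjusted p 2.36e-10). GFRAL, its co-receptor, and GFRA4 did not pass the filter in either line. GAS1, which is related to the GFR-alpha proteins, rose in SK-N-AS from 120 ± 31.4 to 348 ± 29.1 CPM in S1D4 and 320 ± 25.2 CPM in S2D30 (1.505 and 1.38, adjusted p 0.000293 and 0.0002). NCAM1, an alternative receptor of GDNF, fell from 64.1 ± 12.9 to 48.5 ± 6.19 CPM in S2D30 (-0.43, adjusted p 0.00865). SDC3, a proteoglycan that binds these ligands, fell from 68.4 ± 5.41 to 35.8 ± 2.14 CPM (-0.97, adjusted p 1.90e-05). In GIMEN 4 of the 6 tested genes of the list were higher and 1 lower, where 35.5% of all genes were higher and 36% lower.

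**Figure D4:**
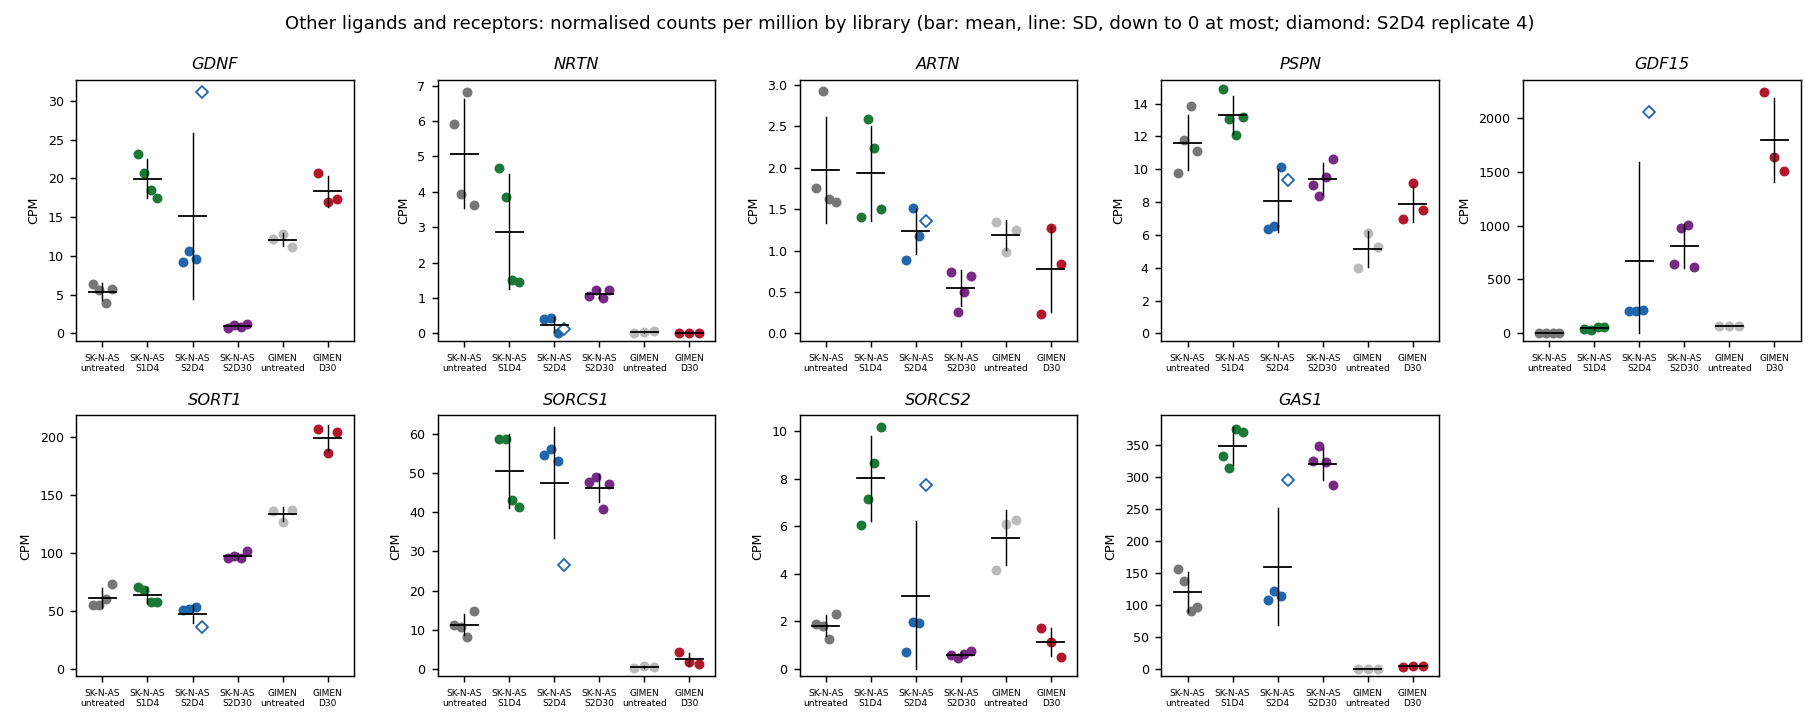
Normalised counts (CPM, y axis, linear, a separate scale for each gene) of 9 other ligands and receptors in each library by group (x axis), with the mean as a bar and the SD as a line that stops at 0. S2D4 replicate 4 (open diamond) differs from the other 3 S2D4 libraries for GDNF, GDF15, SORT1, SORCS1, SORCS2 and GAS1, and GDNF is lowest in S2D30 while GDF15 is highest in GIMEN D30 and in that library.

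In the neurotrophin family, NTF3 and NTF4, which encode ligands of the TRK receptors, did not pass the filter. Genes for p75NTR partners differed among themselves. SORT1, encoding sortilin, which binds proneurotrophins together with p75NTR, rose in S2D30 from 61.0 ± 8.54 to 97.6 ± 2.86 CPM (SD, n = 4, log2 fold change of 0.64, edgeR adjusted p 0.000136) and in GIMEN D30 from 134 ± 5.85 to 199 ± 10.9 CPM (SD, n = 3, 0.55, adjusted p 1.32e-05). Its relative SORCS1 rose in S1D4 from 11.3 ± 2.74 to 50.4 ± 9.49 CPM (2.13, adjusted p 1.86e-06) and was still at 46.1 ± 3.66 CPM in S2D30. SORCS2 rose to 8.004 ± 1.78 from 1.81 ± 0.445 CPM in S1D4 (2.10, adjusted p 0.00223) and fell to 0.601 ± 0.116 CPM in S2D30 (-1.62, adjusted p 0.0136). NGFR was also higher in S1D4 and lower in S2D30, but it was already called lower in S2D4. There SORCS2 was at 1.53 ± 0.718 CPM in replicates 1 to 3 (SD, n = 3) and at 7.71 CPM in replicate 4. LINGO1, a partner of p75NTR in the receptor for myelin inhibitors, was at 1.57 ± 0.405 CPM untreated and 0.738 ± 0.22 CPM in S2D30 (edgeR adjusted p 0.0543, or 0.00156 without S2D4 replicate 4). In S2D4 it was called higher (1.61, adjusted p 0.00552), or 0.66 with an adjusted p of 0.0444 without replicate 4. KIDINS220, a substrate of TRK kinases, was at 80.6 ± 26.0 and 68.4 ± 6.12 CPM (adjusted p 0.157). Of SORT1, SORCS1, SORCS2 and KIDINS220 in GIMEN, 3 were higher and SORCS2 was lower, where 35.5% of all genes were higher and 36% lower.

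Beyond the receptors, 18 genes induced by ERK signalling, which TRK receptors and RET activate, were higher in 15 cases and lower in 0 in S1D4, 16 and 0 in S2D4, and 13 and 1 in S2D30. Of all genes 17.6%, 30.9% and 33.8% were called higher in these comparisons and 22.4%, 32.2% and 36.5% lower. The median log2 fold changes were 1.35, 2.63 and 2.34. EGR2 had the largest change in S2D30, from the floor of 0 to 3 counts to 345 to 428 counts, and VGF changed by 7.43 (edgeR adjusted p 3.46e-13). In GIMEN 14 were higher and 2 lower (35.5% and 36% of all genes). This list was chosen with earlier results of these data known, so its counts are no independent support. The part of TRK receptors and RET in them was not tested. Of 24 tested adaptors of these receptors, 8 were higher and 7 lower in S2D30, with 70.3% of all genes called either way, and the largest changes were in DOK6 and DOK4, which dock on RET, at -4.27 and -2.91 (adjusted p 1.08e-10 and 8.57e-07). Of 8 enzymes that cleave p75NTR, 7 were higher and 1 lower in S2D30 (33.8% and 36.5% of all genes), with ADAM17 at 0.95 (adjusted p 1.23e-05). Of 8 tested enzymes that process proneurotrophins, 4 were higher and 2 lower in S2D30, beside the same shares of all genes (33.8% and 36.5%). The largest changes were in MMP3, a matrix metalloproteinase, with 0 to 7 counts untreated and 3428 to 5619 in S2D30, and in PCSK1, a prohormone convertase, at 7.55 (adjusted p 3.66e-09).

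Among the 13953 genes with a mean of at least 1 CPM, those most like each gene in pattern were found by the correlation of log2 CPM over libraries. The libraries fall into groups and lines, so high values are common. Over all 22 libraries, CHRNA3, a nicotinic receptor subunit, was most like RET (r = 0.997), CELF3 most like NGFR (0.979), PCDH20 most like GFRA2 (0.978), MRPS6 most like BDNF (0.952) and LOXL2 most like NTRK3 (0.961). Over the 16 SK-N-AS libraries alone, the genes most like RET were ELAVL4, a neuronal RNA-binding protein, and CHGA, chromogranin A, both at 0.993, with CHRNA3 again at 0.992. VASH1 was most like NGFR (0.992), IGFBP4 most like GFRA2 (0.983), FLRT3 most like BDNF (0.922) and FSIP2 most like NTRK3 (0.843). CHRNA3 was thus among the 3 most alike genes of RET both with and without GIMEN.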

How the data were processed

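The 8 genes, the gene lists and the tests were chosen with earlier results of these data known. Per the labels, DNase-treated total RNA was sequenced with paired reads. The authors deposited 1 table of raw counts per gene, with no normalization. The aligner, counter, genome build and strand setting are not given in the sources used here. Columns were mapped to samples by their names, 1 of which repeats the line's name. Genes were kept by edgeR's filterByExpr (minimum count 10, minimum total 15), scaled by TMM and tested with edgeR 4.0.16 (quasi-likelihood F-test) in R 4.3.3. Models covered the 16 SK-N-AS libraries, the 6 GIMEN libraries, or the 14 untreated and 30-day libraries for differences between lines. P-values were adjusted by the Benjamini-Hochberg method across every tested gene of a model, and calls were made under 0.05. Replicate numbers were not used as a block. All 8 genes were reported, and some other genes of the lists are not reported here. Other ligands and receptors were named from 1 CPM in any group upward, and other lists by their largest called S2D30 changes. Likeness was measured on log2 CPM (prior count 2). DESeq2 1.42.0 and other alternatives are in the closing section. The testing code was checked on simulated data.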

Additional observations from a re-analysis of the deposited data

Results flagged for a closer look

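Single libraries far from the rest of their group of 4 were looked for in 80 sets of values by Dixon's test, which chance meets in about 1 of 20 groups. Of the 13 values found, 10 were from S2D4 replicate 4. It stood far above the other S2D4 libraries for RET (703 CPM against 126 to 137), NGFR (33.0 against 4.66 to 5.65), GFRA2 (5.38 against 0.279 to 0.659), LINGO1 (12 against 1.93 to 3.09), KIDINS220 (111 against 89.0 to 89.6), GDNF (31.2 against 9.22 to 10.6), GDF15 (2050 against 205 to 220) and GAS1 (295 against 108 to 122). It stood far below them for SORT1 (36.1 against 50.4 to 53.0) and SORCS1 (26.5 against 53.0 to 56.1). The other 3 were the highest of their group at low levels: NTRK2 in S1D4 replicate 2 (0.188 CPM against 0.0803 to 0.0887), GFRA3 in untreated SK-N-AS replicate 1 (0.0989 CPM, on 4 counts, against 0) and ARTN in untreated SK-N-AS replicate 2 (2.93 CPM against 1.59 to 1.76). The 30-day change differed between the lines for BDNF, by 0.92 on the log2 scale, and for NTRK3, by -1.46, both GIMEN minus SK-N-AS.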

How the results depend on the processing

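The number of the 7 genes called was within 1.5 times the reported one in most alternatives. In S2D4 against untreated, with 4 called, DESeq2, the term for replicates 3 and 4 and the model of these groups alone each gave 2. In S2D30, a mean of at least 10 counts gave 3 of 5, since it drops low genes, and from S1D4 to S2D4 the model of the compared groups alone gave 2 of 4. Requiring a change of at least 1 on the log2 scale as well left 0 of 2 in GIMEN and 1 of 2 for the difference between lines, where DESeq2 gave 5 and the 22-library model 1. Leaving out 1 library gave 2 to 4 called genes for S1D4, 2 to 4 for S2D4 and 4 to 5 for S2D30, against untreated cells, and 3 to 5 from S1D4 to S2D4, 3 to 6 from S2D4 to S2D30, and 1 to 2 for the difference between lines. Over all genes the requirement of at least 1 on the log2 scale gave 1942 calls in S1D4, 4577 in S2D4, 5845 in S2D30, 3425 from S1D4 to S2D4, 3109 from S2D4 to S2D30, 3337 in GIMEN, 6853 between untreated lines and 4235 for the difference.

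Several changes turned in sign. NTRK3 in S1D4 (-0.02) was 0.0062 with DESeq2 size factors, 0.0121 with upper-quartile factors, 0.0058 with DESeq2, 0.0085 with no filter and 0.0156 in the model of both groups alone, and -0.31 to 0.26 with 1 library left out. In S2D4 the term for replicates 3 and 4 gave 0.14 for NTRK2 and -0.0059 for NTRK3. With 1 library left out, NTRK2 in S2D4 ranged from -0.68 to 0.15, BDNF in S2D30 from -0.15 to 0.0112, GFRA2 from S2D4 to S2D30 from -0.87 to 1.33 and NTRK3 in that step from -0.0675 to 0.32. SORT1, ARTN and KIDINS220 in S1D4 ranged from -0.018 to 0.14, -0.22 to 0.20 and -0.25 to 0.0794, and SORCS2 and GAS1 in S2D4 from -0.30 to 1.07 and -0.11 to 0.56. The SORCS2 change of 1.07, without S2D4 replicate 1, was called (adjusted p 0.03). The alternative without S2D4 replicate 4 was added after seeing the data where a comparison does not use S2D4. The cause of these shifts was not tested.

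Replicate numbers did not pair the libraries throughout. Between untreated and S1D4 SK-N-AS, replicates 1, 2 and 4 deviated together (r of 0.27, 0.27 and 0.29) and replicate 3 did so less (0.0436). Over all 24 SK-N-AS pairs the correlations were -0.10 to 0.29, 4 of them over 0.1, with 7 highest for their own number, and -0.02 to 0.01 over 3 GIMEN pairs. With a replicate block, 4, 4 and 5 of the 7 genes were called in S1D4, S2D4 and S2D30 and 2 of 2 in GIMEN, as without it, and 6 of 7 between untreated lines. Depth limits GFRA1, GFRA3 and NTRK2 everywhere and RET, GFRA2 and NGFR in GIMEN, where a few counts decide the value.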
